A study of Homo sapiens with 74 samples.

Results

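A set of 7 late erythroid maturation genes, AHSP, BPGM, BNIP3L, TRIM58, TRIM10, XPO7 and TMCC2, was followed through 5 groups of leukaemia cells. They were taken by symbol from the K562 and HEL count tables, as 7 of the 28131 genes that each table lists. K562 and HEL are established human erythroleukaemia cell lines, and polyadenylated RNA was sequenced from both. The K562 groups were wild type (control), DOT1L-/- (DOT1L knockout, KO) and ENL-/- (ENL KO), grown in DMEM with serum. The HEL groups were control and DOT1L knockdown (KD), grown in RPMI-1640 with serum and β-mercaptoethanol. DOT1L is the methyltransferase of histone H3K79, and ENL, encoded by MLLT1, is a DOT1L complex protein that binds acetylated histones. The series set out to study this complex in transcription. Whether each knockout is 1 clone or a pool, and how the knockdown was made, is not given in the sources used here.

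In the last divisions of the red cell lineage, the erythroblast fills with haemoglobin, clears its mitochondria and other organelles, condenses its nucleus and finally expels it. The 7 genes stand for separate steps of that program. AHSP encodes the chaperone that binds and stabilises free alpha globin. BPGM encodes the enzyme that makes 2,3-bisphosphoglycerate, which lowers the oxygen affinity of haemoglobin. BNIP3L, also called NIX, is the receptor that marks mitochondria for removal in reticulocytes. TRIM58 and TRIM10 belong to the tripartite-motif family of ubiquitin ligases and related proteins, and TRIM58 is known to direct the breakdown of dynein in late erythroblasts. XPO7 encodes a nuclear transport receptor linked to chromatin condensation before enucleation. TMCC2 encodes a transmembrane and coiled-coil domain protein that is induced late in erythroid differentiation.

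The K562 libraries held between 15404944 and 29236703 counts and the HEL libraries between 12151495 and 12811688. The counts of K562 controls 2 and 3 were identical for all genes, and these columns were counted as 1 sample, so 2 control, 3 DOT1L KO and 3 ENL KO libraries were compared in K562, and 2 against 2 in HEL. Library-size-scaled counts (CPM) use TMM factors here. DOT1L was at 263 ± 9.84 CPM (SD, n = 2) in the K562 control, at 182 ± 5.15 CPM in its KO libraries (SD, n = 3), and at 29.6 ± 0.641 against 92.4 ± 7.12 CPM (SD, n = 2 each) in HEL. MLLT1 was at 154 ± 1.92 CPM (SD, n = 3) in the ENL KO against 216 ± 3.56 CPM (SD, n = 2). Erythroid markers were present in both lines: all 18 reached 1 CPM in every K562 library, and 17 did so in the HEL controls. HEL also held megakaryocyte markers, whose summed level over 18 genes was 6010 to 6040 CPM in the controls and 4100 CPM in both KD libraries. In K562 that sum was 107 to 118 CPM in the controls, with 9 of the 18 markers at 0, and rose to between 271 and 294 CPM over the knockout libraries. The summed level of 15 myeloid markers was 81.4 to 83.3 CPM in the K562 controls, 396 to 430 in the DOT1L KO and 29.6 to 36.0 in the ENL KO. The myeloid sum is weighted by LYZ, which alone rose from 34.0 ± 1.95 CPM in the controls to 310 ± 17.1 CPM after DOT1L knockout. Of the 7 tested myeloid markers, 5 were called higher there. Markers of at least 1 CPM did not increase in number, with 6 per control library and 5 to 6 per DOT1L KO library. The part of the megakaryocyte and myeloid programs in the changes of the 7 late erythroid genes was not tested. The ENL KO labels name no sequencing lane whereas the control and DOT1L KO labels name one, so a batch difference and the ENL knockout cannot be told apart.

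The genes differed widely in level. Per kilobase of exon, XPO7 stood highest in the K562 control (53.0 ± 4.83 CPM per kb, SD, n = 2), followed by TRIM58 (24.3 ± 1.07) and BNIP3L (22.4 ± 0.809). BPGM (6.96 ± 0.322) and AHSP (6.57 ± 1.29) came next and their libraries overlapped, and TMCC2 was lowest of the tested genes at 0.520 ± 0.0617 CPM per kb. In the DOT1L KO, AHSP moved above BNIP3L (19.3 ± 2.53 against 15.7 ± 0.863 CPM per kb, SD, n = 3 each). In the ENL KO, AHSP took the first place at 58.0 ± 7.71 CPM per kb, with each of its libraries above those of XPO7 (46.9 ± 1.89). HEL controls had another order, with BNIP3L first (95.3 ± 2.53 CPM per kb, SD, n = 2), then XPO7 (60.1 ± 1.54), TRIM58 (18.3 ± 0.113), BPGM (6.82 ± 0.474) and TMCC2 (2.29 ± 0.0692). AHSP was under the floor of 3 counts there, and it entered the order of the KD between BPGM and TMCC2 at 6.49 ± 1.58 CPM per kb. The 2 tables were scaled separately and count fragments in K562 and reads in HEL, so levels are ordered within a line and not tested across lines.

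**Figure D1:**
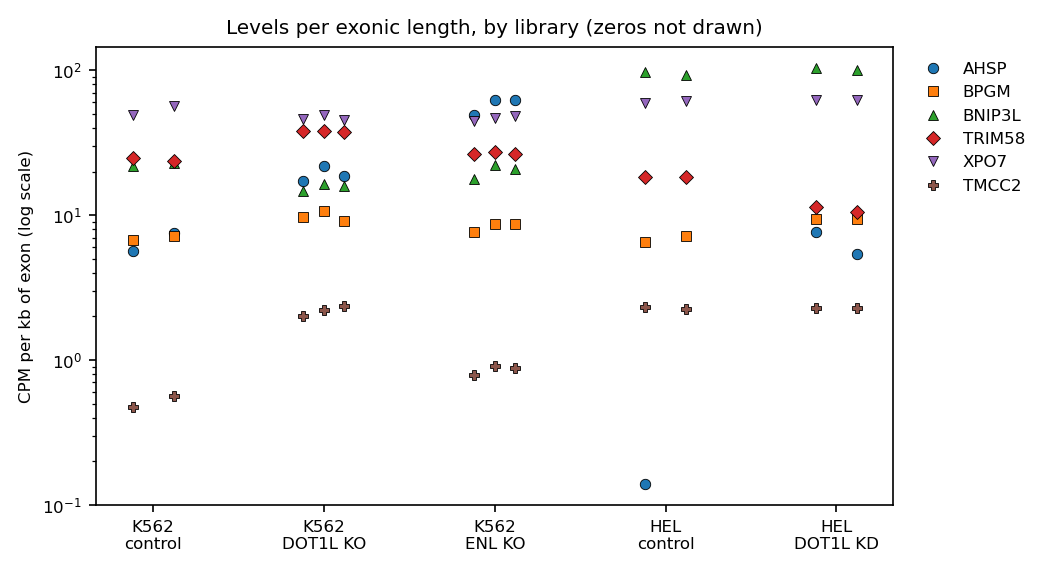
Level of the 6 tested genes per kilobase of exon in each library, on a logarithmic axis, for the 5 groups; points of a gene side by side are the libraries, and a library with 0 counts is not drawn. AHSP lies beside BPGM in the K562 control (6.57 and 6.96 CPM per kb) and above all others in the ENL KO (58.0), while in the HEL control it is drawn in 1 library, at 0.139 CPM per kb.

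**Figure D2:**
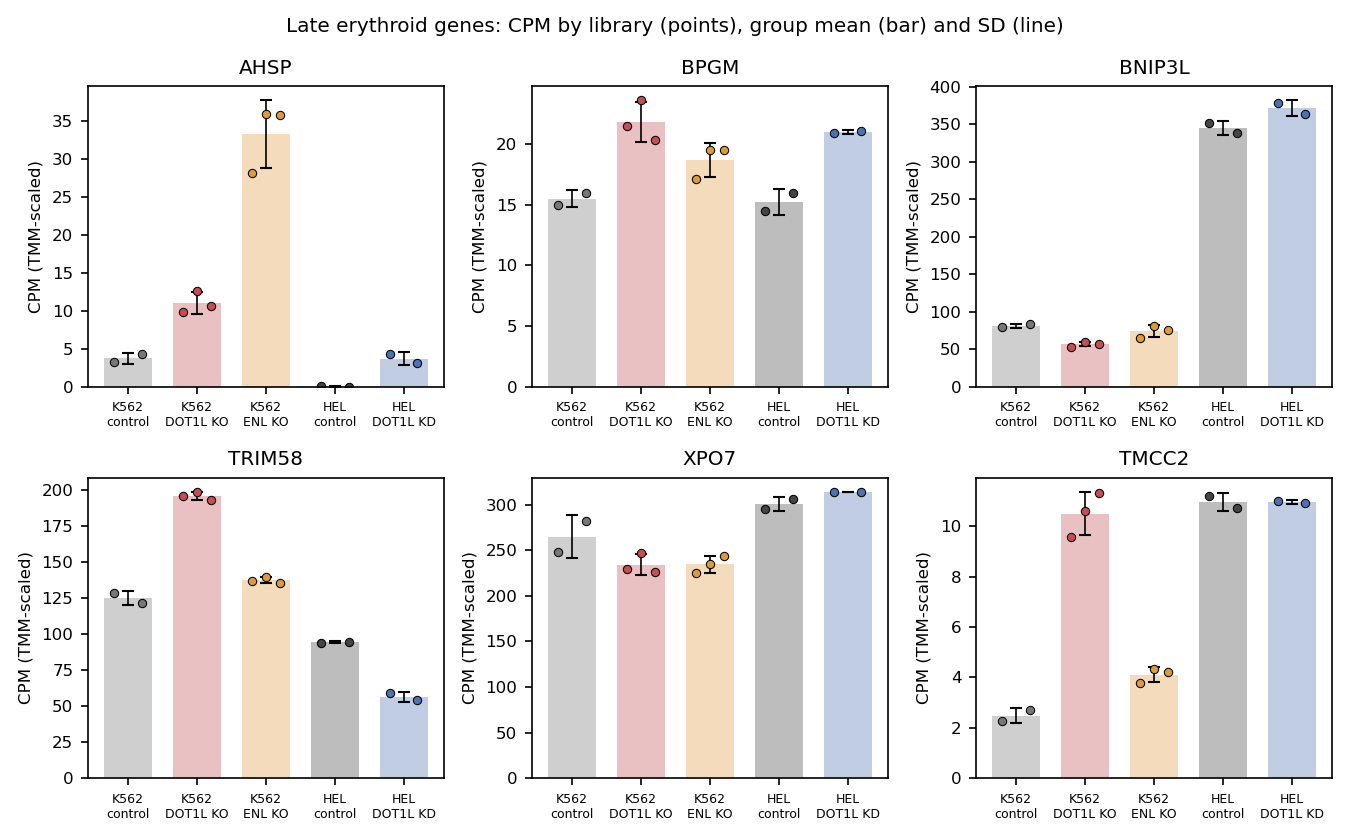
CPM of each gene in every library (points), with the group mean as a bar and the SD as a line; each panel starts at 0 and has its own scale. AHSP rises in steps from control to DOT1L KO to ENL KO in K562, TRIM58 goes up in the K562 DOT1L KO and down in the HEL KD, and TMCC2 in HEL lies between 10.7 and 11.2 CPM in all 4 libraries.

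AHSP (chr16:31527852-31528804, hg38, plus strand, 575 exonic bases) rose in all 3 comparisons with a control. In K562 it was at 3.25 and 4.30 CPM in the controls, at 9.81, 12.7 and 10.7 CPM in the DOT1L KO and at 28.2, 36.0 and 35.8 CPM in the ENL KO. The 3 groups did not overlap, and the lowest ENL KO library was above the highest DOT1L KO library. AHSP rose 2.95-fold in the DOT1L KO (log2 fold change 1.56, SE 0.18, Benjamini-Hochberg adjusted p 6.76e-06 in the quasi-likelihood test of edgeR) and 8.80-fold in the ENL KO (3.14, SE 0.17, adjusted p 6.92e-09, same test). The direct comparison put the DOT1L KO 2.99-fold below the ENL KO (-1.58, SE 0.12, adjusted p 9.44e-08). In a bulk sample, more cells that express a gene and more RNA per cell cannot be told apart.

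In HEL, AHSP was close to undetected before depletion. The 2 control libraries held 1 and 0 counts, under the floor of 3 counts (0.238 to 0.240 CPM), and the KD libraries held 55 and 38 counts, or 4.37 and 3.09 CPM. The summed counts were 93 against 1, a ratio of 93.9 after scaling for library size, with a 95% exact counting interval of 16.4 to 3750. Set across the separately scaled tables, the KD mean of 3.73 ± 0.907 CPM in HEL was close to the 3.78 ± 0.742 CPM of the K562 control (SD, n = 2 each). AHSP reached the count filter in HEL through the KD libraries alone. With no filter the edgeR adjusted p was 0.000563, and with DESeq2 it was 0.00011. The edgeR test with the filter called the rise at an adjusted p of 6.27e-13. Its fitted log2 fold change of 6.23 rests on the single control count and is no bound: it was 8.55 without control 1, which leaves a control at 0, and 5.38 without control 2.

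BPGM (chr7:134646779-134679815, plus strand) went up by a smaller amount. It was at 15.0 and 16.0 CPM in the K562 controls, at 21.5, 23.6 and 20.3 CPM in the DOT1L KO and at 17.1, 19.5 and 19.5 CPM in the ENL KO. In HEL it was at 14.5 and 16.0 CPM in the controls and at 20.9 and 21.1 CPM in the KD. In each comparison every depleted library lay above every control. BPGM rose 1.41-fold in the DOT1L KO (log2 fold change 0.49, SE 0.099, edgeR adjusted p 0.000964) and 1.38-fold in HEL (0.46, SE 0.10, edgeR adjusted p 0.000155). In the ENL KO the rise was 1.20-fold (0.27, SE 0.10) and passed the threshold only just, with an edgeR adjusted p of 0.0495. That call was lost in 12 of 16 other settings, among them the fits without control 1 (adjusted p 0.248), control 2 (0.0972), ENL KO 2 (0.155), ENL KO 3 (0.101), DOT1L KO 1 (0.0565) and DOT1L KO 3 (0.0517).

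BNIP3L, on chromosome 8, did not follow the direction of AHSP and BPGM in K562. Its controls were at 79.3 and 83.4 CPM, the DOT1L KO at 53.5, 59.6 and 57.6 CPM, and the ENL KO at 65.1, 80.6 and 75.9 CPM. All DOT1L KO libraries were below all controls, whereas the ENL KO overlapped the controls. BNIP3L fell 1.43-fold in the DOT1L KO (log2 fold change -0.51, SE 0.084, edgeR adjusted p 0.000180) and did not pass the threshold in the ENL KO (-0.14, SE 0.084, edgeR adjusted p 0.208). The DOT1L KO was also lower than the ENL KO (-0.37, SE 0.076, edgeR adjusted p 0.000804). In HEL the gene stood at 352 and 339 CPM in the controls and at 379 and 364 CPM in the KD, a 1.07-fold rise (0.10, SE 0.032, edgeR adjusted p 0.00593). This small rise lost its call without control 2 (adjusted p 0.0598), without KD 1 (0.174), with DESeq2 (0.105) and with no filter on low counts (0.0704).

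TRIM58 (chr1:247857187-247880136, plus strand) moved in opposite directions in the 2 lines. In K562 it was at 129 and 122 CPM in the controls, at 196, 199 and 193 CPM in the DOT1L KO and at 137, 140 and 136 CPM in the ENL KO. In HEL it was at 94.2 and 95.0 CPM in the controls and at 59.1 and 54.2 CPM in the KD. Groups overlapped in none of these comparisons. TRIM58 rose 1.56-fold in the DOT1L KO (log2 fold change 0.64, SE 0.054, edgeR adjusted p 3.64e-07) and fell 1.67-fold in the HEL KD (-0.74, SE 0.053, edgeR adjusted p 2.32e-17). The ENL KO value of 0.14 (SE 0.054) did not pass the threshold (edgeR adjusted p 0.0598), and the DOT1L KO was above the ENL KO by 0.51 (SE 0.047, edgeR adjusted p 6.62e-07).

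TRIM10 (chr6:30151946-30160934, minus strand) could not be measured. It had 1 count in each K562 control and in DOT1L KO 3, and 0 counts in the other 9 libraries, so it did not reach the count filter and was not tested. A count of 0 allows up to 0.101 to 0.195 CPM in K562 and 0.238 to 0.244 CPM in HEL, for counting error only. The tables list exons of TRIM10 on 8 sequences, chromosome 6 and 7 other contigs. Of 261 chromosome 6 genes that are also listed on other contigs, 95 (36.4%) reached 10 counts in some library, against 713 of 1182 (60.3%) of those listed on chromosome 6 alone. The part of these extra contigs in the low count of TRIM10 was not tested.

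XPO7, also on chromosome 8, had the smallest change of the 6 tested genes in the DOT1L KO. The controls held 248 and 282 CPM, the DOT1L KO 229, 247 and 226 CPM, and the ENL KO 225, 235 and 244 CPM. Both knockouts lay below both controls, by a narrow margin from control 1. The log2 fold change was -0.18 (SE 0.066) in both, with an edgeR adjusted p of 0.0380 for the DOT1L KO and 0.0474 for the ENL KO. Control 2 carried most of it: without that library the values were -0.08 in both (adjusted p 0.424 and 0.489). The DOT1L KO call was also lost without DOT1L KO 1 (adjusted p 0.0931) and DOT1L KO 3 (0.118). The ENL KO call was lost without ENL KO 1 (0.115), ENL KO 2 (0.0930), DOT1L KO 1 (0.0504) and DOT1L KO 3 (0.0562). In HEL, XPO7 was at 295 and 306 CPM in the controls and 314 CPM in both KD libraries, a log2 fold change of 0.06 (SE 0.033) that did not pass the threshold (edgeR adjusted p 0.111). It passed without control 2 (0.09, adjusted p 0.0398) and with upper-quartile scaling (0.13, adjusted p 0.000558) or library size alone (0.10, adjusted p 0.00744).

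TMCC2 (chr1:205227910-205273343, plus strand) had the largest change of the 6 tested genes in the DOT1L KO. It was at 2.28 and 2.70 CPM in the K562 controls, at 9.58, 10.6 and 11.3 CPM in the DOT1L KO and at 3.77, 4.33 and 4.23 CPM in the ENL KO. The 3 groups did not overlap. TMCC2 rose 4.21-fold in the DOT1L KO (log2 fold change 2.07, SE 0.15, edgeR adjusted p 7.64e-08) and 1.65-fold in the ENL KO (0.72, SE 0.17, edgeR adjusted p 0.00375), and the DOT1L KO exceeded the ENL KO 2.55-fold (1.35, SE 0.12, edgeR adjusted p 4.42e-07). AHSP and TMCC2 thus ranked the 2 knockouts in opposite order. In HEL, TMCC2 was at 11.2 and 10.7 CPM in the controls and at 11.0 and 10.9 CPM in the KD. These libraries overlapped, and the change was 0.999-fold (SE 0.13 on the log2 scale, edgeR adjusted p 0.992).

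The starts of the 3 genes of the group that rose in the DOT1L KO and have a RefSeq promoter entry (GRCh38.p14) are shown to let their upstream bases be compared. Entries were found for 4 of the 7 genes: BPGM, TRIM58, TRIM10 and TMCC2. Each line gives bases before a start that lie outside the exons of the count tables, 5′ to 3′ on the plus strand. Capitals mark the letters CCNCNCCC (bound by KLF1, the erythroid CACCC-box factor) or AGATAA (bound by GATA factors) on either strand, overlapping matches included.
BPGM chr7:134646603-134646778: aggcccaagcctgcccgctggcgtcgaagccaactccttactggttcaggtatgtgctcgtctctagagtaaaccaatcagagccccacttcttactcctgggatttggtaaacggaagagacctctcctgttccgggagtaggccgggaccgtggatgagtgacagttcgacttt
TRIM58 chr1:247856937-247857186: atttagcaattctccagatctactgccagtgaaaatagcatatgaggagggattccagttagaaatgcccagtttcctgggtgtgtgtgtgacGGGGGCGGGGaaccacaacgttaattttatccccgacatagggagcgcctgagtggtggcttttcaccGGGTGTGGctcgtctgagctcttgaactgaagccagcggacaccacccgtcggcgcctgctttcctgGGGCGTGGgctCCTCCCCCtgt
TMCC2 first start chr1:205227696-205227909: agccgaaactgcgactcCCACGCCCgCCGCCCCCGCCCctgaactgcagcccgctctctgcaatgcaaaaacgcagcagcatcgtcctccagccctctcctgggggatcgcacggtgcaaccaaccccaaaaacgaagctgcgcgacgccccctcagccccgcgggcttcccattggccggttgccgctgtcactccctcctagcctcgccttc
TMCC2 inner start chr1:205255952-205256200: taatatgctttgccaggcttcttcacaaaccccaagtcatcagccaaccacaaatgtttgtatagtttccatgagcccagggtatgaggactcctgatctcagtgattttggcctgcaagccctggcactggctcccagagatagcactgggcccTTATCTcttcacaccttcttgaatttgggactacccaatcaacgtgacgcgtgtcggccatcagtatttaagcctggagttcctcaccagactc
The TRIM58 stretch holds 5 matches to CCNCNCCC and the first TMCC2 stretch holds 3, while the BPGM stretch holds none. The inner TMCC2 stretch is shown because it alone of the 6 TMCC2 entries holds AGATAA, written on the other strand as TTATCT. It was thus picked for its match, so the share of all entries with AGATAA is no measure for it. The TRIM10 entry, not shown, also holds 1 match to AGATAA. No entry of the 4 genes holds TGATAA, which was searched as a further GATA sequence. The 4 TMCC2 entries not shown hold 11, 4, 4 and 0 matches to CCNCNCCC. The BPGM and first TMCC2 stretches were shortened to 176 and 214 bases, and in their full 250 bases they hold 0 and 5 matches to CCNCNCCC. Over all 35116 promoter entries, the 250 bases before the start held CCNCNCCC on either strand in 53.4% and AGATAA in 9.2%. Which TMCC2 start is used in these cells cannot be read from counts per gene.

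In the DOT1L KO of K562, AHSP, TMCC2, TRIM58 and BPGM rose and BNIP3L and XPO7 fell. All 6 tested genes passed the threshold, 4 higher and 2 lower, where 51.1% of the 14301 genes tested were called (26.9% higher, 24.2% lower). The median log2 fold change of the 6 genes was 0.56 and that of all tested genes 0.01. The decrease of XPO7 is the weak call among them, as given above.

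The ENL KO called 4 of the 6 genes, where 41% of all tested genes were called (18.8% higher, 22.2% lower). AHSP, TMCC2 and BPGM were higher and XPO7 was lower. The median over the 6 genes was 0.20, against 0.00 over all genes. Of these 4 calls, those of BPGM and XPO7 were lost in other settings. Both knockouts share their control libraries, so the calls they have in common are not independent of each other. Tested directly, 5 of the 6 genes differed between DOT1L KO and ENL KO, at a background of 60.2%. TMCC2, TRIM58 and BPGM were higher in the DOT1L KO and AHSP and BNIP3L were higher in the ENL KO. XPO7 was alike in the means (234 CPM in both; edgeR adjusted p 0.994, SE 0.060 on the log2 scale). The BPGM difference of 0.22 (SE 0.087, edgeR adjusted p 0.0390) was lost when any of 6 libraries was left out: control 1 (0.0532), control 2 (0.0530), DOT1L KO 1 (0.0562), DOT1L KO 2 (0.163), ENL KO 1 (0.152) or ENL KO 2 (0.0560).

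In HEL, DOT1L KD raised AHSP, BPGM and BNIP3L and lowered TRIM58, so 4 of 6 tested genes were called, where 55% of 12635 genes were (27% higher, 28% lower). The small rise of BNIP3L lost its call in other settings, and AHSP met the count filter through the KD libraries alone, as given above. The median was 0.08 over the 6 genes and 0.01 over all. With upper-quartile scaling, the share of higher genes among all called in HEL moved from 49.1% to 61.4%, and the calls of these 4 genes kept their directions. The spread between HEL libraries was small (biological coefficient of variation 1.83%, against 6.34% in K562), and the labels do not say that replicates were separate cultures, so the p-values measure the spread between these libraries only.

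**Figure D3:**
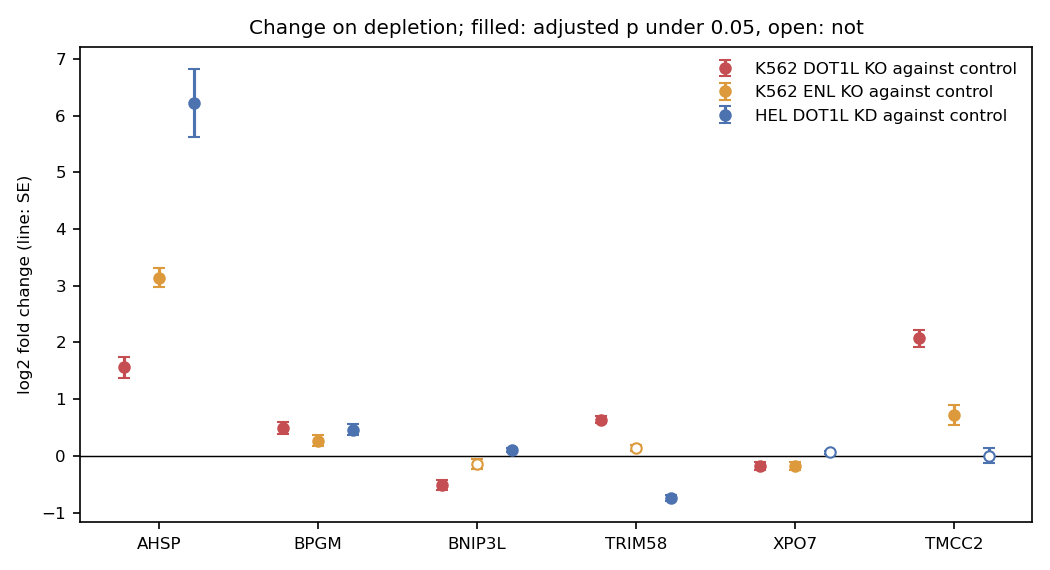
Log2 fold change against the own line's control for the 6 tested genes (points) with its standard error (lines), in the K562 DOT1L KO, the K562 ENL KO and the HEL DOT1L KD; filled points have an adjusted p under 0.05. BPGM is positive in all 3 comparisons (0.49, 0.27 and 0.46), TRIM58 is at 0.64 and -0.74 for DOT1L depletion in the 2 lines, and the HEL value of AHSP is a fitted value that rests on 1 control count.

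The response to DOT1L depletion differed between the lines for 5 of the 6 genes, in a joint test of the interaction that called 38.9% of 15367 genes. TRIM58 and TMCC2 responded lower in HEL than in K562, by -1.36 (SE 0.083, edgeR adjusted p 3.20e-11) and -2.06 (SE 0.20, edgeR adjusted p 5.27e-08) on the log2 scale. BNIP3L responded higher by 0.63 (SE 0.079, edgeR adjusted p 1.42e-06) and XPO7 by 0.26 (SE 0.082, edgeR adjusted p 0.0163). The fitted difference of AHSP, 4.79 (SE 0.83, edgeR adjusted p 8.10e-05), again rests on the near-empty HEL controls and is no bound; it was 7.67 without HEL control 1 and 3.90 without HEL control 2. BPGM differed by -0.01 (SE 0.15, edgeR adjusted p 1.00). HEL differs from K562 also in the way DOT1L was depleted, in the culture medium and in the unit counted, and these cannot be told apart from the line. The XPO7 call was lost without K562 control 2 (adjusted p 0.127), DOT1L KO 3 (0.0594), HEL control 1 (0.0773), KD 1 (0.0551) or KD 2 (0.0563).

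AHSP acts on alpha globin, and the globin genes were set beside it. Counts of this and the following lists stand against the shares of all genes called, given above: 51.1% in the DOT1L KO, 41% in the ENL KO and 55% in HEL. Of 10 globin genes, 9 were tested in each line. In the DOT1L KO 7 rose and none fell, with a list median of 0.81. In the HEL KD all 9 rose, with a median of 0.64. The ENL KO raised 4, with a median of 0.23, against 0.01, 0.01 and 0.00 over all genes in the same order. HBA2, an adult alpha globin, was at 135 ± 6.54 CPM (SD, n = 2) in the K562 control, 281 ± 27.0 in the DOT1L KO libraries and 135 ± 8.26 in the ENL KO (SD, n = 3 each). In the ENL KO, where AHSP was highest, HBA2 did not pass the threshold (edgeR adjusted p 0.987), and HBA1 was at 201 ± 40.8 CPM against 203 ± 12.5 in the control (edgeR adjusted p 0.943). HBZ, the embryonic alpha-type globin, rose in all 3 comparisons, by 1.44 (SE 0.068, edgeR adjusted p 1.27e-09) in the DOT1L KO, 0.61 (SE 0.066, edgeR adjusted p 6.36e-06) in the ENL KO and 2.82 (SE 0.13, edgeR adjusted p 9.25e-25) in HEL. HBE1, the embryonic beta-type globin, was the globin with the largest rise in the ENL KO (806 ± 28.4 to 1850 ± 38.6 CPM, 1.20, SE 0.053, edgeR adjusted p 1.24e-09). HBA1 and HBA2, and HBG1 and HBG2, are near-identical pairs whose reads can be split or dropped in counting.

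**Figure D4:**
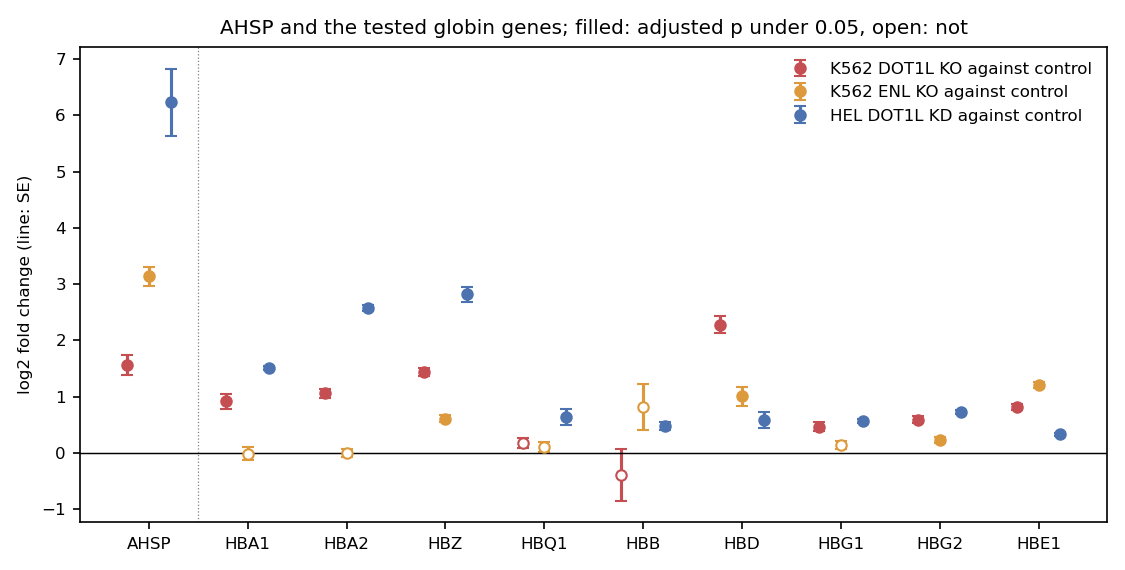
Log2 fold change of AHSP and of the 9 tested globin genes (points) with standard errors (lines) in the 3 comparisons with a control; filled points have an adjusted p under 0.05. In the ENL KO, AHSP is at 3.14 while HBA1 and HBA2 lie on 0, and in HEL every globin gene is filled and above 0.

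Glycolysis feeds the shunt in which BPGM works, and most of its tested genes fell in the K562 DOT1L KO, in which BPGM rose. Of 17 listed genes, 16 were tested in K562. In the DOT1L KO 12 fell and 1 rose, with a median of -0.44. ALDOC, an aldolase, went down from 167 ± 15.0 to 46.0 ± 5.15 CPM (SD, n = 2 and 3; -1.86, SE 0.090, edgeR adjusted p 1.68e-09). The one gene that rose was PKLR, which encodes the pyruvate kinase of red cells and liver (3.02 ± 0.196 to 8.91 ± 0.403 CPM, 1.56, SE 0.15, edgeR adjusted p 1.06e-06). MINPP1, a phosphatase that can also remove phosphate from 2,3-bisphosphoglycerate, fell in the DOT1L KO (-1.12, SE 0.058, edgeR adjusted p 3.08e-09) and in HEL (-0.91, SE 0.073, edgeR adjusted p 8.74e-16). HEL showed the other direction for the list as a whole, with 12 of 15 tested genes higher and 1, MINPP1, lower (median 0.27). GAPDH rose there from 5470 ± 54.1 to 8230 ± 39.0 CPM (SD, n = 2 each; 0.59, SE 0.026, edgeR adjusted p 3.26e-26). The interaction called 14 of 16 glycolysis genes, all higher in HEL, with a median of 0.74 against 0.01 over all genes, whereas BPGM was at -0.01. In the ENL KO 3 rose and 4 fell (median 0.01), and PKLR had the largest rise (1.85, SE 0.15, edgeR adjusted p 3.19e-07).

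Among 17 tested genes of mitophagy and autophagy, the process that BNIP3L starts, 7 rose and 4 fell in the DOT1L KO (median 0.15, against 0.01 over all genes), where 26.9% of all genes were called higher and 24.2% lower. BNIP3, the close relative of BNIP3L, went down as well, from 57.3 ± 0.490 to 21.8 ± 0.664 CPM (SD, n = 2 and 3; -1.40, SE 0.072, edgeR adjusted p 2.82e-09). FOXO3, a transcription factor of autophagy genes in erythroid cells, rose 1.98-fold (0.99, SE 0.074, edgeR adjusted p 1.15e-07), and ULK1, the kinase that starts autophagy, rose 1.41-fold (0.49, SE 0.068, edgeR adjusted p 4.49e-05). Of the same genes 4 rose and 4 fell in the ENL KO (median -0.02), near the 41% called over all genes, with TFEB, a lysosomal gene regulator, at -1.24 (SE 0.12, edgeR adjusted p 1.97e-06). In HEL 9 rose and 2 fell (median 0.24). The 2 that fell were MAP1LC3B, which encodes an LC3 protein of the autophagosome membrane, at -1.42 (SE 0.080, edgeR adjusted p 1.67e-21), and ATG12 at -0.55 (SE 0.073, edgeR adjusted p 5.55e-09).

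Ubiquitin genes of terminal erythropoiesis were called at shares near those of all genes in both knockouts. Of 13 genes, 3 rose and 3 fell in the DOT1L KO, 4 rose and 1 fell in the ENL KO, and 6 rose and 3 fell in HEL, with medians of 0.01, 0.02 and -0.05, where 51.1%, 41% and 55% of all genes were called. RANBP9 fell in the DOT1L KO (162 ± 8.02 to 81.9 ± 3.99 CPM, -0.99, SE 0.065, edgeR adjusted p 3.41e-08), in which TRIM58 rose. UBE2H, the conjugating enzyme of the MAEA ligase complex, rose in the DOT1L KO (49.4 ± 0.760 to 82.5 ± 3.35 CPM, 0.74, SE 0.065, edgeR adjusted p 5.48e-07) and fell in the ENL KO (-0.50, SE 0.066, edgeR adjusted p 4.58e-05). RMND5A, a subunit of that complex, fell 3.50-fold in HEL (176 ± 5.96 to 50.3 ± 0.630 CPM, -1.81, SE 0.049, edgeR adjusted p 5.21e-35). Of the dynein and dynactin genes, the motor that TRIM58 acts on at the protein level, 5 of 15 rose and 2 fell in the DOT1L KO (median 0.05), 3 rose and 3 fell in the ENL KO (0.03), and 8 of 14 rose and 3 fell in HEL (0.12). The counts in the knockouts are near the 51.1% and 41% of all genes called. DYNC1H1, the dynein heavy chain, fell in both knockouts, by -0.52 (SE 0.086, edgeR adjusted p 0.000214) and -0.66 (SE 0.086, edgeR adjusted p 3.76e-05).

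Exportins and genes of the Ran cycle, which powers transport by XPO7, were counted next. In the DOT1L KO 4 of 10 tested genes fell and none rose (median -0.10), with XPO6 at -0.41 (SE 0.051, edgeR adjusted p 1.60e-05) and XPO5 at -0.26 (SE 0.062, edgeR adjusted p 0.00309). In the ENL KO only the tRNA exportin XPOT was called, at -0.21 (SE 0.061, edgeR adjusted p 0.0147; list median 0.02). In HEL 8 of 11 fell and 2 rose (median -0.23), led by XPOT (320 ± 5.59 to 135 ± 2.74 CPM, -1.24, SE 0.037, edgeR adjusted p 1.82e-33), while XPO7 stayed between 295 and 314 CPM. RANBP17, the close relative of XPO7, had 0 counts in the K562 libraries, with the same upper limit as TRIM10, and was at 11.6 ± 1.19 CPM in the HEL control (SD, n = 2).

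Other erythroid genes moved beside these late ones. Of 18 erythroid markers, 15 rose and 1 fell in the DOT1L KO (median 0.76), 11 rose and 3 fell in the ENL KO (0.22), and 13 rose and 2 fell in HEL (0.20). ALAS2, the first enzyme of erythroid haem synthesis, rose from 55.6 ± 4.45 (SD, n = 2) to 355 ± 7.36 CPM in the DOT1L KO and to 158 ± 2.09 CPM in the ENL KO (SD, n = 3 each). SLC4A1, the anion exchanger of the red cell membrane, rose from 33.1 ± 0.231 to 206 ± 2.04 and 171 ± 9.65 CPM. In the DOT1L KO both had larger log2 fold changes than the 6 tested late genes (2.67, SE 0.064, and 2.64, SE 0.066; edgeR adjusted p 8.98e-12 and 9.93e-12). The summed erythroid marker level, 3 of whose genes are globins, was 7920 to 8440 CPM in the K562 controls, 10700 to 11200 in the DOT1L KO and 9740 to 9770 in the ENL KO, and it went from 9430 to 9570 CPM in the HEL controls to 12300 to 13000 CPM in the KD.

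**Figure D5:**
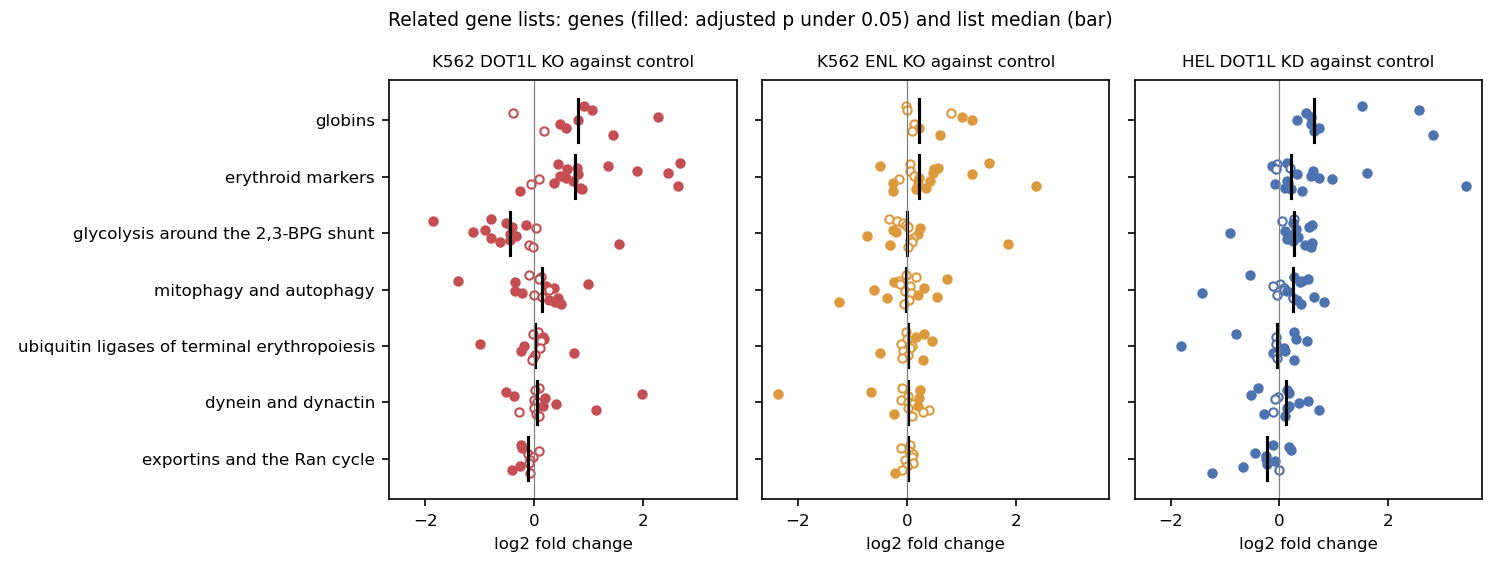
Log2 fold change of each tested gene (points; filled with an adjusted p under 0.05) in 7 lists of related genes, with the list median as a bar, in the 3 comparisons with a control. Most globins lie above 0 in the DOT1L KO and all do in HEL (medians 0.81 and 0.64). The glycolysis genes lie mostly below 0 in the K562 DOT1L KO (median -0.44) and mostly above 0 in HEL (0.27).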

How the data were processed

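The authors deposited whole-number counts per gene, fragment counts for K562 and read counts for HEL per the labels, with exon positions and exonic lengths. The submitters' processing notes name fastp 0.13.1, HISAT2 2.1.0, Bowtie2 2.3.4.1, featureCounts 1.6.1 and deepTools, and the builds hg38 and hg19. The listed positions were set against GRCh38: 93.7% of symbols matched RefSeq of GRCh38.p14, and 99.745% of 26326 matched genes overlapped their position there. The use of strand in counting is not given in the sources used here. None of the 7 genes shares exonic bases with another listed gene. Of 74 samples, 13 are RNA-seq libraries and 61 others were not analysed here.

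In R 4.3.3, filterByExpr of edgeR 4.0.16 kept genes by a count of at least 10 and a summed count of at least 15, and TMM factors scaled the libraries. The quasi-likelihood test of edgeR compared groups, with p-values adjusted over all genes tested (Benjamini-Hochberg) and a threshold of 0.05. The 8 distinct K562 libraries entered one fit, HEL another, and the interaction a joint fit of the DOT1L and control libraries. Standard errors were derived from the F statistic. A count of 0 was read as up to 3 counts (0.101 to 0.195 CPM in K562, 0.238 to 0.244 CPM in HEL). Reads carry no molecular identifiers, so intervals and floors cover counting error only. The scripts were tested on simulated data. Replicate columns were compared by chi-square per degree of freedom, which was 0 for K562 controls 2 and 3 and 4.05 to 9.64 for the other K562 pairs. It was 1.45 for the pair of HEL controls and 1.31 for the pair of HEL KD libraries.

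The 7 genes and the related lists were chosen with earlier results of these data known. Beside the 7 genes, list genes were named from up to 3 called genes per list and comparison, those with the largest change. These were genes of at least 5 CPM whose groups do not overlap, and only some of them are given in the text. HBA1 and HBA2 in the ENL KO, and RANBP17 in K562, were named after their values were seen. For each of the 7, the 2 genes nearest in pattern were sought, and some of them are not reported here. Alternatives were DESeq2 1.42.0, RLE, upper-quartile and library-size scaling, no filter, a minimum absolute log2 fold change of 1, the replicate number as a term, each library left out, only the groups compared, and all control columns kept.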

Additional observations from a re-analysis of the deposited data

Results flagged for a closer look

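The change on DOT1L depletion differed between HEL and K562, by the interaction test of edgeR with Benjamini-Hochberg adjustment, for 5 of the 6 tested genes. HEL minus K562, on the log2 scale, the difference was 4.79 for AHSP, 0.63 for BNIP3L, -1.36 for TRIM58, 0.26 for XPO7 and -2.06 for TMCC2. TRIM58 rose in K562 and fell in HEL. BNIP3L fell in K562 and rose 1.07-fold in HEL, a rise whose own call was lost in other settings. TMCC2 rose in K562 and was at 0.999-fold in HEL. The AHSP value rests on 1 count over both HEL controls. XPO7 was the only one of these 5 calls that was lost when single libraries were left out.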

How the results depend on the processing

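Of 438 values of the 6 tested genes under other settings, 375 kept direction and side of the threshold, 41 lost the call, 6 gained one and 16 changed sign. AHSP, TMCC2, TRIM58, BNIP3L and BPGM kept their calls in the K562 DOT1L KO under every setting that used the p threshold alone, with ranges of 1.37 to 1.77, 1.95 to 2.20, 0.60 to 0.69, -0.55 to -0.47 and 0.43 to 0.54. When calls also had to reach 1 on the log2 scale in either direction, 2 of the genes remained called in the DOT1L KO, 1 in the ENL KO, 2 between the knockouts, 1 in HEL and 3 in the interaction, and over all genes 2265, 1573, 2744, 738 and 1950. For the ENL KO, DESeq2 and the fit of only the 2 groups compared each called 2 of the genes, and leaving out single libraries gave 2 to 4, where over all genes 5373, 5403 and 4094 to 5872 were called, against 5863. DESeq2 called 4373 genes in HEL, against 6951 with edgeR.

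The sign changed for values near 0 only. XPO7 between the knockouts was at 0.0069 with RLE factors, 0.05 with library size, 0.04 with upper-quartile factors, 0.0037 with DESeq2 and with only the 2 groups compared, and at -0.04 to 0.03 without single libraries (0.02 without DOT1L KO 1, 0.03 without DOT1L KO 3 or ENL KO 3). TMCC2 in HEL was at 0.03 with library size, 0.07 with upper-quartile factors and at -0.03 to 0.03 without single libraries (0.03 without control 1, 0.0018 without KD 2). The BPGM interaction was at 0.0026 with all 3 control columns kept and at -0.09 to 0.06 without single libraries (0.06 without K562 control 1 or HEL control 2, 0.03 without DOT1L KO 2). The causes were not tested.

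Whether the labels' replicate numbers pair the samples was not settled, and the main fits did not use the number. Same-numbered K562 libraries of different groups correlated at 0.053 to 0.22 in their deviations from the group means. Differently numbered ones correlated at -0.158 to 0.088. The identical controls 2 and 3 were kept as number 2, so their values with DOT1L KO 3 (0.05) and ENL KO 3 (0.088) stand in this second range. With the number as a replicate block, 6 genes of the set were called in the DOT1L KO, 6 in the ENL KO (BNIP3L at -0.16, adjusted p 0.0279, and TRIM58 at 0.14, adjusted p 0.0161, were added), 5 between the knockouts, 4 in HEL and 5 in the interaction. Over all genes the block gave 8340, 7021, 9605, 6903 and 6858 calls, against 7305, 5863, 8606, 6951 and 5980 without it. With 2 controls in each line and 70 and 91 counts of AHSP or 49 and 57 of TMCC2 in the K562 controls, their fold changes are the least precise by counting error among the 6 in K562.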

Other observations

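Other lists close to the set were described by counts, beside 51.1% of all genes called in the K562 DOT1L KO, 41% in the ENL KO and 55% in HEL. Of 42 tested TRIM genes beside TRIM58, 14 rose and 9 fell in the K562 DOT1L KO (median 0.08), 8 rose and 11 fell in the ENL KO (0.02), and of 40 in HEL 8 rose and 11 fell (-0.07), shares near those of all genes. TRIM67 had the largest rise in the DOT1L KO (4.06 ± 0.613 to 14.6 ± 1.06 CPM, SD, n = 2 and 3; log2 fold change 1.84, edgeR adjusted p 6.98e-08). TRIM6 rose there (0.86, edgeR adjusted p 1.56e-05) and fell in the ENL KO (-1.57, edgeR adjusted p 3.69e-07). Of 8 tested genes of nuclear condensation and enucleation, 2 rose and 2 fell in the DOT1L KO, 2 rose and 1 fell in the ENL KO, and 2 rose and 3 fell in HEL, which is also near the background. KMT5A, which methylates histone H4, rose in HEL (49.6 ± 1.07 to 75.7 ± 2.85 CPM, SD, n = 2 each; 0.61, edgeR adjusted p 2.41e-13). Among relatives of the 7 genes, TMCC3 and TMCC1 rose in HEL, by 1.46 (edgeR adjusted p 1.95e-08) and 0.58 (edgeR adjusted p 1.33e-08), where TMCC2 was at 0.999-fold.

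Of 17 tested erythroid transcription regulators in K562, 10 rose and 5 fell in the DOT1L KO (median 0.37) and 9 rose and 4 fell in the ENL KO (0.19), and of 18 in HEL 5 rose and 3 fell (0.02). In the DOT1L KO, STAT5A fell (873 ± 13.5 to 353 ± 6.19 CPM, SD, n = 2 and 3, -1.31, edgeR adjusted p 1.82e-10). TAL1 rose there (117 ± 2.27 to 216 ± 1.37 CPM, 0.88, edgeR adjusted p 1.36e-08). In the ENL KO, KLF13 fell (8.18 ± 1.13 to 2.72 ± 0.153 CPM, -1.59, edgeR adjusted p 2.15e-06). GFI1B rose in the ENL KO (108 ± 1.33 to 221 ± 5.19 CPM, 1.04, edgeR adjusted p 6.01e-09). Megakaryocyte markers rose in 6 of 7 tested genes in the DOT1L KO and 5 of 7 in the ENL KO, and fell in 13 of 15 in HEL. Myeloid markers rose in 5 of 7 tested genes in the DOT1L KO, fell in 6 of 7 in the ENL KO, and in HEL 2 of 5 rose and 1 fell.

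The genes nearest in pattern were sought among 8983 genes tested in both lines with a mean of at least 5 CPM in each. The measure was the root mean square difference of log2 CPM, each relative to the own line's controls, over the 12 libraries. Among the nearest genes were KLHDC10 (0.04) for XPO7, FEM1C (0.06) and HPS3 (0.07) for BNIP3L, STRADB and COMMD7 (0.08 each) for BPGM, CREB3L2 (0.09) for TRIM58, and DOP1B (0.13) and CD44 (0.17) for TMCC2. For AHSP the nearest of the genes searched were farther off, ESPN (1.10) and SYP (1.18). AHSP itself was at no more than 4.37 CPM in HEL, so genes as low as it there were not searched. Whether AHSP has a nearer neighbour among such genes cannot be read from this search. These distances describe 12 libraries that share controls and carry no test.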
